A study of Mus musculus with 8 samples.

Results

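Transcripts of 8 paired and inhibitory receptors of myeloid cells were followed across bone marrow cells sorted by the presence or absence of the integrin CD11b. The genes were Pilra, Pilrb1, Pilrb2, Sirpa, Clec4a2, Clec12a, Cd300a and Cd300lf, 8 of the 18790 named genes in the count files, and all 8 were present there. They were listed by symbol, and Pilrb2 was picked for its tight difference between the sorts, so the contrast between the sorts that chose it is given for all 8 genes as a description, and their calls on it support nothing. Marrow was flushed from femurs of untreated C57BL/6 mice. Both groups carried the Csf1r-EGFP transgene, in which the promoter of Csf1r, the receptor for macrophage colony-stimulating factor, drives green fluorescent protein (GFP). The promoter is active in monocytes and macrophages, and its activity in other myeloid cells limits the reporter as a macrophage marker. The CD11b+ cells were gated as F4/80+, VCAM1+, Ly6G- and low for GFP, and the CD11b- cells as F4/80+, VCAM1+ and GFP+. Each group had 4 biological replicates. The sources used here do not give the age or sex of the mice, or how many mice went into a replicate.

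Paired receptors are families of closely related cell surface proteins in which some members inhibit and others activate the cell. The inhibitory members carry tyrosine motifs (ITIMs) in the cytoplasmic tail, which recruit the phosphatases SHP-1, SHP-2 and SHIP-1 once they are phosphorylated by Src-family kinases. The activating members have a short tail and signal through a partner such as DAP12 or the Fc receptor gamma chain, whose activation motif (ITAM) recruits the kinase Syk. On neutrophils, monocytes and macrophages these receptors set thresholds for phagocytosis, integrin activation and cytokine release. Messenger RNA was measured here, and no surface protein.

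PILR-alpha is the inhibitory member and PILR-beta the activating, DAP12-coupled member of the paired immunoglobulin-like type 2 receptors, and the mouse has copies of the latter in Pilrb1 and Pilrb2. Their promoters are shown because the 3 genes share nearly the same upstream sequence. In the RefSeq windows of GRCm38.p6, which run from 250 bases before to 50 bases after each annotated start, 7 of the 8 genes had an entry, and Sirpa was not among them. The printed stretches lie on the minus strand at chr5:137836279-137836474 for Pilra, chr5:137858095-137858299 for Pilrb1 and chr5:137871804-137872008 for Pilrb2. The counts were made on another build, mm9, and these coordinates belong to GRCm38 alone. Capitals mark matches to a RUNX core (ACCACA, which is TGTGGT read on the other strand) and to an ETS core (AGGAAGT).
Pilra: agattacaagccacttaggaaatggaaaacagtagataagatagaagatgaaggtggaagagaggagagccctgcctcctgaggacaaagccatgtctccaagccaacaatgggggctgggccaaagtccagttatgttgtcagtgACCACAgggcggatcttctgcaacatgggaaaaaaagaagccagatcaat
Pilrb1: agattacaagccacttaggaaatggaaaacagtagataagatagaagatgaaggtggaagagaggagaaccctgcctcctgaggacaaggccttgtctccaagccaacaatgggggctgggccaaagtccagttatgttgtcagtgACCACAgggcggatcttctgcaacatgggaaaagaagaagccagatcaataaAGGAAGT
Pilrb2: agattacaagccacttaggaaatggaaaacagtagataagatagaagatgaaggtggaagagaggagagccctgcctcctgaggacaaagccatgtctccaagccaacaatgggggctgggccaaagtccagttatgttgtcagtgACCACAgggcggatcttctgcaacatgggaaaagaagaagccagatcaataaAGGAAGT
Counted from the first base printed, the Pilra and Pilrb2 stretches differed only by A180G over 196 bases, with the base of Pilra first. From Pilra to Pilrb1 there were 4 substitutions over the same 196 bases, G69A, A89G, A93T and A180G. From Pilrb1 to Pilrb2 there were 3 over 205 bases, A69G, G89A and T93A. The annotated start of Pilra lies 54 bases farther upstream in the shared sequence than those of the Pilrb genes, so the same ETS core falls at bases 3 to 9 after the start of Pilra and at -52 to -46 in Pilrb1 and Pilrb2. Over the full windows, 244 of 246 aligned bases were identical between Pilra and Pilrb2 (99.2%), 242 of 246 between Pilra and Pilrb1 (98.4%) and 292 of 300 between Pilrb1 and Pilrb2 (97.3%).

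Letters matching myeloid factors were also counted in the other receptors, on both strands of the same 300-base windows. AGGAAGT was present in 4 of the 7 receptor windows (the 3 PILR genes and Cd300lf) and in 9.4% of all 32851 windows. TGTGGT was present in 5 of 7 (the PILR genes, Clec12a and Cd300lf) and in 16.8% of all windows. The C/EBP-type letters TTGCNNAA were present in 5 of 7 (the PILR genes, Clec12a and Cd300a) and in 10.8% of all windows. The 3 PILR windows are near-copies and are not separate observations. In those 3 windows the matches to the different motifs did not overlap. These are matches of letters and not measured binding.

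The coding sequences bear on how well counts of the 3 genes can be told apart. Pilrb1 and Pilrb2 were identical at 624 of their aligned coding bases with 47 mismatches (93.0%), and Pilra was 88.6% identical to Pilrb1 and 87.4% to Pilrb2 over aligned pairs. Stretches of 50 bases shared with any other gene in the GENCODE M21 transcripts made up 32.2% of those of Pilrb1, 30.6% of Pilrb2 and 20.8% of Pilra. The share held in common by Pilrb1 and Pilrb2 was 26.0%. The 100 coding bases (positions 364 to 463, in exon 2) in which Pilrb1 and Pilrb2 differ most are printed with those differences in capitals, at chr5:137835340-137835439 for Pilra, chr5:137857165-137857264 for Pilrb1 and chr5:137870874-137870973 for Pilrb2, all on the minus strand of GRCm38.
Pilra: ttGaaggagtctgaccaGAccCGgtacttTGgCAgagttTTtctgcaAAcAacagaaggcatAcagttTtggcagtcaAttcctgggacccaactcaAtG
Pilrb1: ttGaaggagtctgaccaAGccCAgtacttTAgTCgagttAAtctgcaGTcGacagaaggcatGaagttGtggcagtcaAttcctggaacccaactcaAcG
Pilrb2: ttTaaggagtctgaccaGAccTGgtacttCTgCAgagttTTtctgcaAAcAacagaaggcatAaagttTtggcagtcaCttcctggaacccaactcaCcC
Of the 19 positions at which Pilrb1 and Pilrb2 differ there, Pilra has the base of Pilrb2 at 12, the base of Pilrb1 at 6 and neither at 1. Reads from such stretches can identify their gene, while reads from shared stretches may have been dropped or split, because neither the read length nor the handling of reads with several matches is known (not given in the sources used here). The levels of the 3 PILR genes are uncertain to that extent. Pilra also overlaps Zcwpw1 on the opposite strand, and that gene accounts for 13.2% of its 50-base stretches. SmartSeq2 does not mark strand. Zcwpw1 stood at 10.4 to 22.2 CPM in the CD11b+ and 9.14 to 13.9 CPM in the CD11b- libraries, where Pilra was at 10.9 to 23.3 CPM, and both genes were highest of CD11b- in replicate 2. The part of reads from Zcwpw1 in the level of Pilra was not tested. Pilrb1 and Pilrb2 overlap the gene models Gm36551 and Gm43495, which were not analysed here. For the other 5 receptors the shared part was 6.8% in Clec4a2, 3.5% in Cd300a, 2.4% in Cd300lf, 0.5% in Clec12a and 0.0% in Sirpa.

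Library totals were 36604660 to 47951234 counts in the CD11b+ and 27462607 to 35160747 in the CD11b- libraries. Levels are given as CPM, counts scaled by the total over named genes. Where a library had no count, the level could still reach 0.0627 to 0.110 CPM, the value of 3 counts (counting error only). All 5 genes listed for the sort (Itgam, Adgre1, Vcam1, Csf1r and Ptprc) were called higher in CD11b+. Called means a Benjamini-Hochberg adjusted p under 0.05 by edgeR's quasi-likelihood test over all genes. Ptprc is in none of the gates given above, and Csf1r entered them only through its GFP reporter. Csf1r averaged 85.35 CPM in CD11b+, gated low for GFP, and 36.0 CPM in CD11b-, gated GFP+. Its transcripts thus ran opposite to the reporter gates, and the reason was not tested. Of 15 resident macrophage markers, 2 were called higher and 3 lower in CD11b+, with summed levels of 701 to 816.5 CPM in CD11b+ and 457.4 to 793.9 CPM in CD11b-. The 2 called higher were Vcam1 and Adgre1, whose proteins were used in the sort. Without them the other 13 summed to 232.6 to 279.1 CPM in CD11b+ and 395.6 to 647.1 CPM in CD11b-, so every CD11b- library was above every CD11b+ library. Markers of other cells moved with the sorts, although the CD11b+ gate left out cells with the neutrophil protein Ly6G, whose gene was not analysed here. The summed levels were 67220 to 94340 against 141 to 736 CPM for 11 neutrophil genes (8 called higher), 57940 to 85240 against 471 to 6827 CPM for 5 primary granule genes (5 called higher), and 6804 to 19570 against 69.7 to 472 CPM for 8 eosinophil genes (6 called higher). For 8 monocyte genes they were 410 to 663 against 75.2 to 167 CPM, with 4 called higher and 1, Irf8, lower. Without Irf8 they were 397.9 to 639.2 against 34.06 to 65.78 CPM. For 12 erythroid genes they were 706.5 to 1231 against 32990 to 44330 CPM (12 called lower), and for 9 B lineage genes 53.2 to 139.9 against 1215 to 2296 CPM, with 7 of 8 tested called lower. No marker of these lists was at 0 in every library of a group. Every receptor difference below ran beside these, and the part of cell composition in it was not tested. In bulk RNA, fewer cells of a type and less RNA per cell cannot be told apart.

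All 8 receptors were higher in every CD11b+ library than in any CD11b- library. All 8 also passed the filter on low counts, and the same test called 8 higher and 0 lower in CD11b+. Among the 11965 genes tested, 29.7% were called in either direction. Of all tested genes, 14.6% were called higher in CD11b+ and 15.0% lower, and in 18.1% the CD11b+ libraries all lay above the CD11b- libraries. Because the genes were chosen on this contrast, nothing is read from their count. Their fitted log2 fold changes, CD11b+ over CD11b-, ran from 2.15 to 5.86 with a median of 4.03, against a median of -0.01 over all tested genes. Summed over the 8 genes, the CD11b+ libraries averaged 2020 ± 91.6 CPM and the CD11b- libraries 122 ± 26.5 CPM (SD, n = 4).

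**Figure D1:**
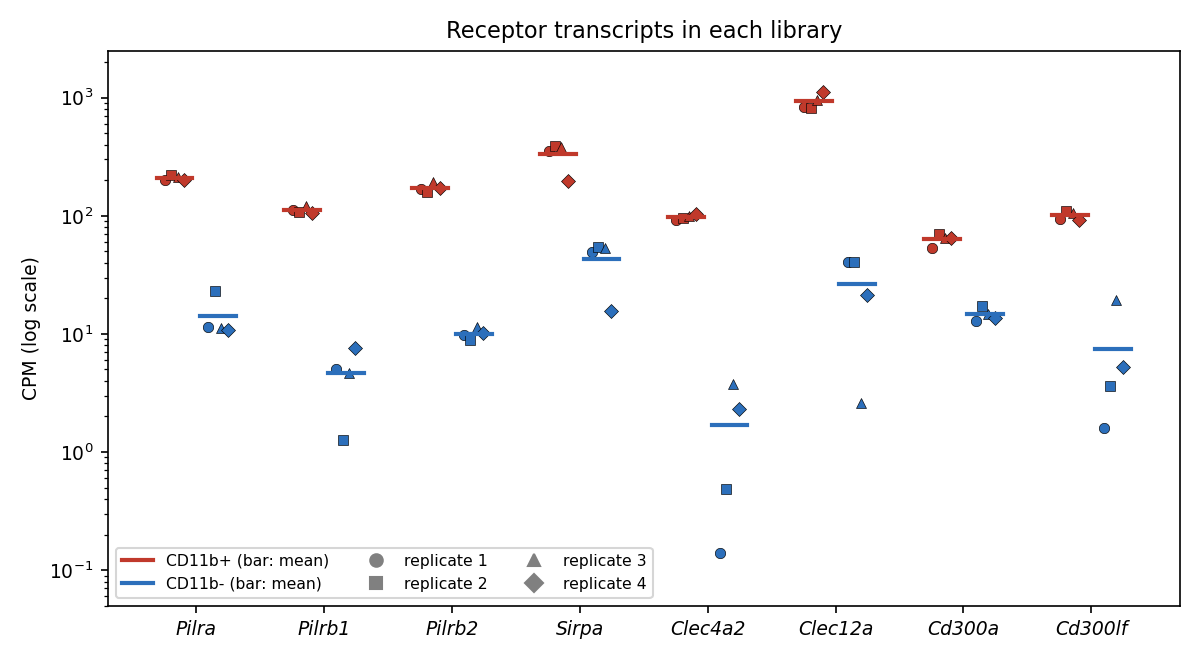
Level of each receptor gene in each library, in CPM on a log scale, with CD11b+ libraries in red, CD11b- libraries in blue, a marker shape for each replicate number and bars at the group means. For all 8 genes the red points lie above the blue points, and the blue points of Clec4a2, Clec12a and Cd300lf are spread more widely than those of Pilrb2 and Cd300a.

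Among the PILR genes, Pilra stood at 202.9, 221, 211 and 199 CPM in CD11b+ replicates 1 to 4 and at 11.4, 23.3, 11.1 and 10.9 CPM in CD11b- replicates 1 to 4. The CD11b+ libraries were close to each other, and CD11b- replicate 2 lay above the other CD11b- libraries without reaching any CD11b+ library. The means were 208.6 ± 9.68 and 14.2 ± 6.08 CPM (SD, n = 4), a 15.2-fold difference (log2 3.92, SE 0.28). Pilra encodes the inhibitory receptor of the family, which binds sialylated O-glycans on proteins such as CD99 and PIANP and recruits SHP-1.

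Pilrb1, which encodes an activating receptor that couples to DAP12, was at 113, 107.9, 120.2 and 105.9 CPM in the CD11b+ libraries and at 5.04, 1.26, 4.66 and 7.64 CPM in CD11b- replicates 1 to 4. CD11b- replicate 2, the highest of its group in Pilra, was the lowest in Pilrb1, and the groups did not overlap. The means were 111.8 ± 6.37 and 4.65 ± 2.62 CPM, a 24.9-fold difference (log2 4.64, SE 0.48).

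Pilrb2, the other activating-type copy, was at 169, 158.6, 191.6 and 172.6 CPM in the CD11b+ libraries and at 9.75, 8.89, 11.4 and 10.1 CPM in the CD11b- libraries. The libraries of each group lay close together, with no library apart. The means were 173 ± 13.8 and 10.1 ± 1.06 CPM, a 17.6-fold difference (log2 4.14, SE 0.18). Pilrb2 was picked for its tight difference between the sorts, so its small spread follows from the choice and nothing is read from it. Its SE was the smallest of the 8, and its coefficient of variation was 7.97% in CD11b+ and 10.5% in CD11b-. That of Pilrb1 went from 5.70% to 56.4% and that of Pilra from 4.64% to 42.9%.

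The balance within the family was steady in CD11b+ and varied in CD11b-. The ratio of Pilrb1 to Pilrb2 in CPM was 0.668, 0.680, 0.627 and 0.614 in the CD11b+ libraries and 0.516, 0.142, 0.408 and 0.754 (CPM ratio) in the CD11b- libraries. The groups overlapped in it, with CD11b- replicate 4 above and replicate 2 far below the CD11b+ range. Per kilobase of exon, Pilra relative to the sum of both Pilrb genes was 0.4656 ± 0.041 in CD11b+ and 0.692 ± 0.510 in CD11b- (SD, n = 4). The CD11b- libraries other than replicate 2 had ratios of 0.388 to 0.487, against 1.45 in replicate 2, and the CD11b+ libraries had 0.429 to 0.525. So the inhibitory transcript was below the summed activating transcripts in 7 of 8 libraries, and CD11b- replicate 2 was the exception. Zcwpw1, which overlaps Pilra, was also highest of CD11b- in replicate 2 (13.9 CPM). Its part in the level of Pilra was not tested, and sequence shared among the 3 PILR genes leaves these ratios uncertain.

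Sirpa encodes SIRP-alpha, the inhibitory receptor for CD47, a surface protein that marks cells as not to be engulfed. It was at 355, 388.7, 383 and 198 CPM in the CD11b+ libraries and at 49.9, 54.2, 52.9 and 15.7 CPM in the CD11b- libraries. Replicate 4 was the lowest library in both groups, and the groups did not overlap. The means were 331 ± 89.9 and 43.1 ± 18.4 CPM, a 7.87-fold difference (log2 2.98, SE 0.41). Leaving out 1 library at a time, the fold ran from 6.53 without CD11b- replicate 4 to 9.03 without CD11b+ replicate 4.

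The C-type lectin receptors had the largest fold changes of the 8. Clec4a2, which encodes the ITIM-bearing dendritic cell immunoreceptor DCIR, was at 92, 96, 98.8 and 104.5 CPM in the CD11b+ libraries and at 0.141, 0.486, 3.799 and 2.31 CPM in the CD11b- libraries. CD11b- replicates 3 and 4 were the higher libraries, and replicate 1 was close to the level that 3 counts give. The means were 97.8 ± 5.23 and 1.68 ± 1.70 CPM, a 57.9-fold difference (log2 5.86, SE 0.87). The fold was 107 without CD11b- replicate 3 and 32.1 without CD11b- replicates 1 and 2, which had the most transcripts of the granule gene Mpo in their group.

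Clec12a encodes an inhibitory lectin receptor of granulocytes and monocytes that recognises uric acid crystals and dead cells. It was at 842, 815.7, 948.6 and 1126 CPM in the CD11b+ libraries and at 40.9, 40.7, 2.62 and 21.2 CPM in the CD11b- libraries. Its lowest CD11b- library was replicate 3, the library in which Clec4a2 was highest. The means were 933 ± 141 and 26.4 ± 18.3 CPM, a 37.3-fold difference (log2 5.22, SE 0.70), and without CD11b- replicates 1 and 2 the fold was 82.4. Of the CPM summed over the 8 genes, Clec12a held 41.5% to 54.6% in CD11b+ and 2.18% to 31.1% in CD11b-.

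The CD300 receptors recognise lipids such as phosphatidylserine that dying cells expose. Cd300a, which encodes an ITIM-bearing member, was at 53.1, 69.7, 64.7 and 65.1 CPM in the CD11b+ libraries and at 12.8, 17.2, 14.8 and 13.7 CPM in the CD11b- libraries. It was the receptor with the smallest fold of the 8, and no CD11b- library stood apart. The means were 63.2 ± 7.04 and 14.6 ± 1.89 CPM, a 4.44-fold difference (log2 2.15, SE 0.22). Its coefficient of variation was 11.1% in CD11b+ and 12.9% in CD11b-.

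Cd300lf, which encodes the inhibitory receptor CLM-1, was at 94.9, 109.4, 106 and 92.3 CPM in the CD11b+ libraries and at 1.58, 3.66, 19.4 and 5.23 CPM in the CD11b- libraries. CD11b- replicate 3 was far above the other 3 CD11b- libraries, and below every CD11b+ library. The means were 100.7 ± 8.34 and 7.46 ± 8.08 CPM, a 13.3-fold difference (log2 3.73, SE 0.72), which was 30.5-fold without CD11b- replicate 3 and 8.09-fold without CD11b- replicates 1 and 2. Per kilobase of exon, Cd300lf exceeded Cd300a in every CD11b+ library, by ratios of 1.31 to 1.64, and in CD11b- only in replicate 3 (1.21), the other CD11b- ratios being 0.113, 0.196 and 0.352.

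**Figure D2:**
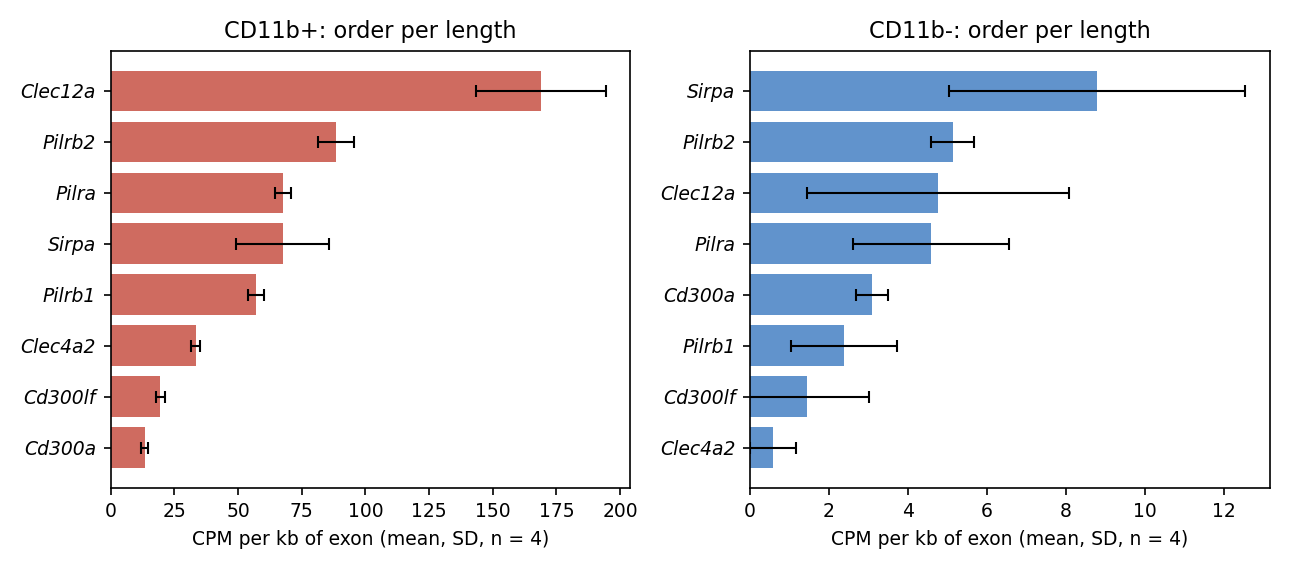
Mean level of each receptor gene in CPM per kilobase of exon (bars, with SD over 4 libraries), ordered from high to low in CD11b+ on the left and CD11b- on the right, on axes of different range. Clec12a leads in CD11b+ at 168.8, and Sirpa leads in CD11b- at 8.79.

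Levels of different genes were compared per kilobase of the union of a gene's exons. In CD11b+ the order of mean levels was Clec12a at 168.8 ± 25.5 CPM per kb, then Pilrb2 at 88.4 ± 7.04, Pilra at 67.5 ± 3.13, Sirpa at 67.5 ± 18.3, Pilrb1 at 57.1 ± 3.25, Clec4a2 at 33.4 ± 1.79, Cd300lf at 19.6 ± 1.62 and Cd300a at 13.3 ± 1.49 CPM per kb (SD, n = 4). Among neighbours in that order, only Sirpa, at 40.4 to 79.1 CPM per kb, overlapped the libraries of Pilra and Pilrb1. With the length of the longest transcript in place of the exon union, Sirpa (83.2 CPM per kb) stood above Pilra (80.9 CPM per kb), the other positions were kept, and Clec12a was at 288.7 CPM per kb.

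In CD11b- the order was another one. Sirpa led at 8.79 ± 3.75 CPM per kb, followed by Pilrb2 at 5.14 ± 0.54, Clec12a at 4.77 ± 3.32, Pilra at 4.59 ± 1.97, Cd300a at 3.09 ± 0.40, Pilrb1 at 2.38 ± 1.34, Cd300lf at 1.45 ± 1.57 and Clec4a2 at 0.575 ± 0.581 CPM per kb. The libraries of every neighbouring pair overlapped, so neighbours in that order are not resolved beyond the spread. Some genes farther apart did not overlap. Every Pilrb2 library (4.54 to 5.84 CPM per kb) lay above every library of Cd300a (2.71 to 3.63 CPM per kb) and of Clec4a2 (0.0481 to 1.30 CPM per kb). With the longest transcript the CD11b- level of Clec12a was 8.16 CPM per kb, above Pilrb2 at 5.56 CPM per kb. Sirpa made up 9.61% to 19.8% of the summed CPM of the 8 genes in CD11b+ and 18.1% to 43.8% in CD11b-.

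The mean level left in CD11b- differed among the receptors, but library by library only Cd300a lay apart from all the others. The libraries of the other receptors overlapped in part. As a percentage of the CD11b+ mean, the CD11b- mean was 23.2% for Cd300a, 13.02% for Sirpa, 7.41% for Cd300lf, 6.79% for Pilra, 5.81% for Pilrb2, 4.16% for Pilrb1, 2.83% for Clec12a and 1.72% for Clec4a2. By library, Cd300a kept 20.4% to 27.2% and Pilrb2 5.14% to 6.61%. Clec12a kept 4.39%, 4.36%, 0.281% and 2.27% in CD11b- replicates 1 to 4, Cd300lf 1.57%, 3.63%, 19.2% and 5.20%, and Clec4a2 0.144%, 0.496%, 3.88% and 2.36%. The libraries that were high for Clec12a were thus not those high for Cd300lf and Clec4a2.

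Markers of granulocytes varied over the same CD11b- libraries. The primary granule list, which includes myeloperoxidase and elastase, stood at 10.2%, 6.71%, 2.41% and 0.706% of its CD11b+ mean in CD11b- replicates 1 to 4. The neutrophil list stood at 0.216%, 0.176%, 0.919% and 0.238%, and was highest in replicate 3, as Cd300lf and Clec4a2 were. The eosinophil list stood at 3.41%, 2.36%, 0.512% and 0.504%, and the monocyte list at 21.4%, 14.4%, 21.8% and 32.0%. The monocyte list includes Irf8, a transcription factor gene that was called lower in CD11b+ and stood at 46.1, 36.9, 61.6 and 133 CPM in those libraries. Without Irf8 the monocyte list stood at 12.99%, 7.56%, 10.3% and 6.73%. The share of Cd300a, at 20.4% to 27.2%, lay above every share of the neutrophil, eosinophil and primary granule lists and of the monocyte list without Irf8. It overlapped the shares of the monocyte list with Irf8. The resident macrophage list stood at 104.7%, 106.1%, 61.1% and 80.5%, above Cd300a in every CD11b- library. Without Vcam1 and Adgre1, whose proteins were used in the sort, that list stood at 229.1%, 245.7%, 150.2% and 178.1%. The basophil and mast cell list, at 159.8%, 87.4%, 16.2% and 8.76%, lay on both sides of Cd300a. The part of these cells in the receptor levels was not tested.

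**Figure D3:**
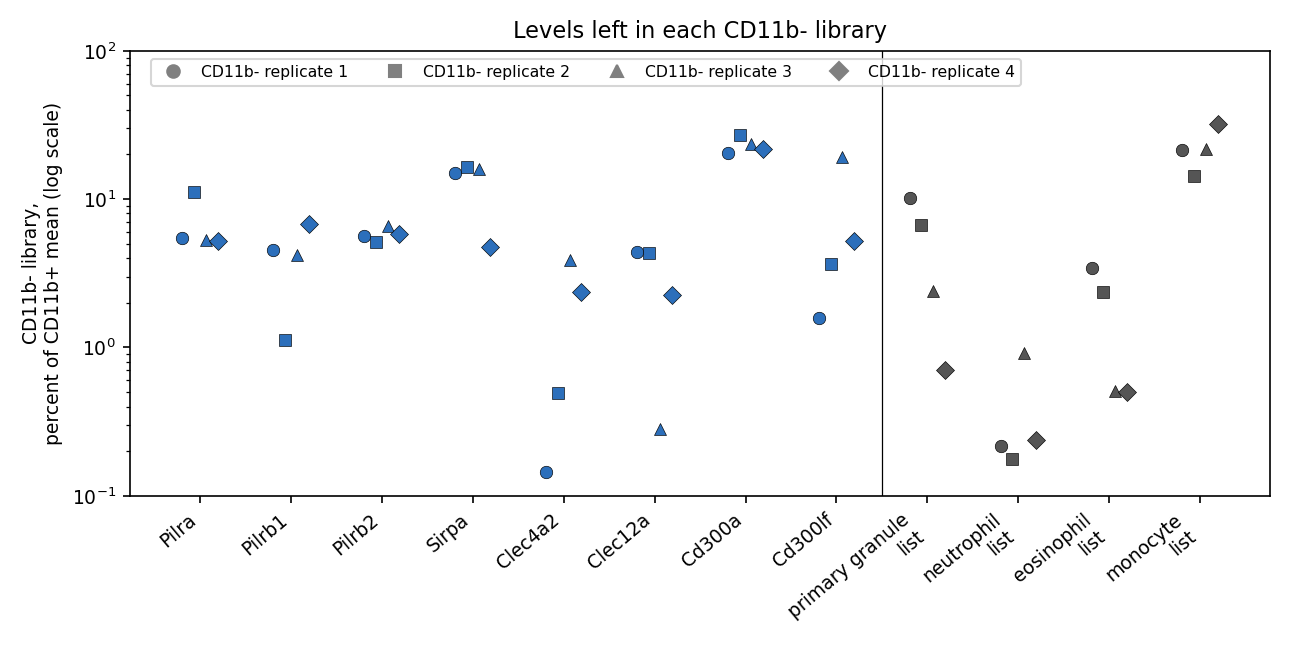
Level in each CD11b- library as a percentage of the CD11b+ mean, on a log scale, for the 8 receptor genes (blue) and for the summed CPM of 4 marker lists (grey, the monocyte list with Irf8), with a marker shape for each replicate. Cd300a lies between 20.4% and 27.2% in all 4 libraries, while Clec12a is lowest and Cd300lf highest in replicate 3.

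Ligands of the receptors were listed by symbol (8 genes, of which 6 were in the files and 3 passed the filter). Cd99 and Sftpa1 were not analysed here. Of the 3, 0 were called higher and 1 lower in CD11b+, beside 14.6% and 15.0% of all tested genes. The median log2 fold change of the 3 was -0.97, the value of Cd47, against -0.01 over all tested genes. Thbs1 ran the other way, at 4.59 ± 3.67 and 0.943 ± 1.89 CPM (log2 2.33, SE 2.02), and was at 0 in CD11b- replicates 1, 3 and 4. It was not called (adjusted p = 0.451 by edgeR, 0.00916 to 0.656 over the alternatives). Cd47, the ligand of SIRP-alpha, was at 877, 1114, 900 and 1183 CPM in the CD11b+ libraries and at 1672, 2155, 2151 and 2244 CPM in the CD11b- libraries, so that the groups did not overlap. It was lower in CD11b+ by 0.97 on the log2 scale, or 1.97-fold higher in CD11b- (SE 0.17, adjusted p = 0.00181 by edgeR with Benjamini-Hochberg adjustment, 3.27e-08 to 0.00788 over the alternatives). Per kilobase of exon, the ratio of Cd47 to Sirpa transcripts was 1.93, 2.24, 1.84 and 4.67 in the CD11b+ libraries and 26.2, 31.1, 31.8 and 112 in the CD11b- libraries, with replicate 4 the highest of each group. Cd99l2, a relative of the PILR ligand CD99, was at 2.48 ± 2.33 and 9.14 ± 7.38 CPM and was not called (adjusted p = 0.171 by edgeR).

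The adaptors that carry the activating signal differed in the same direction as the receptors. All 3 listed adaptors, Tyrobp and Fcer1g with an ITAM and Hcst without one, were called higher in CD11b+, beside 14.6% of all tested genes. The median log2 fold change of the 3 was 2.60. Tyrobp, which encodes DAP12, the partner of PILR-beta, averaged 282 ± 32.9 CPM in the CD11b+ libraries and 35.1 ± 11.9 CPM in the CD11b- libraries (8.37-fold, adjusted p = 1.54e-05 by edgeR). Fcer1g, the Fc receptor gamma chain, was at 348 ± 43.9 and 60 ± 17.1 CPM (6.04-fold, adjusted p = 1.18e-05 by edgeR). Hcst, which encodes DAP10, an adaptor that signals through phosphatidylinositol 3-kinase, was at 31.2 ± 6.83 and 6.09 ± 0.82 CPM (5.27-fold, adjusted p = 0.000379 by edgeR). In all 3 every CD11b+ library lay above every CD11b- library, which held for 18.1% of all tested genes. The Pilrb1 and Pilrb2 folds of 24.9 and 17.6 were larger than that of their adaptor, and the difference of folds was not tested.

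Downstream of the receptors, 11 of 13 signalling genes were tested, with a median log2 fold change of 1.10. Of the 11, 6 were called higher and 0 lower in CD11b+, beside 14.6% and 15.0% of all tested genes. Csk, the kinase that restrains Src-family kinases, had an adjusted p of 0.0574 by edgeR, and was called lower by DESeq2, by limma, with upper-quartile scaling, with a stricter filter and without CD11b- replicate 3. The 6 called higher included Fgr and Lyn, Src-family kinases, and Ptpn6. They also included Skap2, an adaptor in integrin signalling, and Grb2, an adaptor of growth factor receptors. Ptpn6 encodes SHP-1, the phosphatase that ITIMs recruit, and was at 401 ± 49.2 and 185 ± 29.4 CPM (2.25-fold, adjusted p = 0.000233 by edgeR). Its relative Ptpn11, which encodes SHP-2, was at 21.8 ± 9.66 and 37.7 ± 26.7 CPM and was not called (adjusted p = 0.415). Inpp5d, which encodes the lipid phosphatase SHIP-1, was at 86.2 ± 33.8 and 81.3 ± 25.3 CPM and was not called (adjusted p = 0.79).

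The kinase Fgr, which acts in integrin signalling of neutrophils, was at 128 ± 20.2 and 10.7 ± 9.98 CPM (12-fold, adjusted p = 0.00334 by edgeR). The fold of Fgr was 21.8 without CD11b- replicate 3, its highest CD11b- library, and 6.98 without CD11b- replicates 1 and 2. Skap2 was 4.01-fold higher (adjusted p = 0.000208), Grb2 2.26-fold (adjusted p = 0.00107) and Lyn 2.15-fold (adjusted p = 0.000683).

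Relatives of the 8 receptors include activating partners and further lectin receptors. Of 26 listed SIRP, CD300 and C-type lectin genes, 23 were in the files and 15 were tested, with 3 called higher, 0 lower and a median log2 fold change of 1.12. The 3 are 20.0% of those tested, beside 14.6% of all tested genes, and limma called 5. In 5 of the 15 every CD11b+ library lay above every CD11b- library, which held for 18.1% of all tested genes. Clec5a, an activating lectin receptor that pairs with DAP12, was at 521 ± 47.7 and 3.42 ± 3.73 CPM (159-fold, adjusted p = 0.000307 by edgeR). The fold of Clec5a was 313 without CD11b- replicate 1 and 355 without CD11b- replicates 1 and 2. Cd300lb, the activating relative of Cd300lf, was at 62.3, 93.1, 203.9 and 87.8 CPM in the CD11b+ libraries and at 3.94, 0, 3.12 and 0 CPM in the CD11b- libraries. It was 64.3-fold higher in CD11b+ (adjusted p = 0.00731 by edgeR), and 104-fold without CD11b- replicate 1. Clec4b2, a C-type lectin receptor related to Clec4a2, had 2153 counts in CD11b+ and 5 in CD11b-, all 5 of them in replicate 2 (adjusted p = 0.00121). The ratio of its pooled CPM was 322, with a 95% counting interval of 138 to 994. That interval leaves out the spread between libraries, and the fit over the libraries gave a log2 fold change of 8.33 (SE 1.37). Without CD11b- replicate 2, Clec4b2 was at least 385-fold higher against a floor of 3 counts over the group. Clec7a, the beta-glucan receptor dectin-1, was at 13.6 ± 6.30 and 3.34 ± 2.39 CPM and was not called (adjusted p = 0.14).

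Inhibitory receptors outside these families were called in both directions, mostly higher. Of 17 tested, 6 were called higher (35.3%) and 2 lower in CD11b+, beside 14.6% and 15.0% of all tested genes. In 9 of the 17 every CD11b+ library lay above every CD11b- library, and in 2 the reverse held. Of all tested genes, 18.1% and 18.4% did so. The median log2 fold change was 2.88, which is the value of Pirb and does not depend on the value given to Cd33. Ceacam1, an ITIM-bearing adhesion receptor, was at 292 ± 52.4 and 10.9 ± 3.46 CPM (28.0-fold, adjusted p = 2.4e-06 by edgeR). Cd33, a sialic acid-binding lectin, was at 9.85 to 37.3 CPM in CD11b+ and had no count in any CD11b- library, at least 904-fold higher against a floor of 3 counts over the group (adjusted p = 0.000174). Lilrb4a was 9.53-fold higher (adjusted p = 0.000606), and 14.5-fold without CD11b- replicate 4. Lair1, a collagen receptor, was 13.1-fold higher (adjusted p = 0.0267 by edgeR), but the call was lost when CD11b+ replicate 2, 3 or 4 was left out (adjusted p = 0.0507, 0.0515 and 0.0548), and the fold was 23.5 without CD11b- replicate 1. Pirb (7.37-fold) and Fcgr2b (8.39-fold) were the other genes called higher.

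Both genes called lower are known from B cells. Cd72, an inhibitory receptor of B cells, averaged 12.8 ± 4.17 CPM in the CD11b+ and 182 ± 85.8 CPM in the CD11b- libraries (13.7-fold higher in CD11b-, adjusted p = 5.31e-05 by edgeR). Cd22, the B cell sialic acid-binding lectin, was at 0.0274, 0, 5.39 and 0.246 CPM in the CD11b+ libraries and at 56, 25.7, 41.7 and 67.7 CPM in the CD11b- libraries (32.4-fold higher in CD11b-, adjusted p = 0.034). The call of Cd22 was lost without CD11b+ replicate 1 or 4 (adjusted p = 0.0592 and 0.0815), without CD11b- replicate 1, 3 or 4 (0.0609, 0.0541 and 0.0647) and without CD11b- replicates 1 and 2 (0.0781), and the fold was 479 without CD11b+ replicate 3. Siglecg was at 52.4 ± 12.2 and 74.3 ± 62.1 CPM and was not called (adjusted p = 0.544). The B lineage marker list was higher in CD11b- too, and its part in these values was not tested.

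Activating receptors that use ITAM adaptors were also called in both directions. Of 13 tested, 3 were called higher (23.1%) and 1 lower in CD11b+, beside 14.6% and 15.0% of all tested genes. Their median log2 fold change was 2.71. In 6 of the 13 every CD11b+ library lay above every CD11b- library, and in 1 the reverse held, beside 18.1% and 18.4% of all tested genes. Trem3, a DAP12-coupled receptor, was at 517 ± 71.8 and 9.22 ± 5.73 CPM (57.4-fold, adjusted p = 0.000105 by edgeR), and 95.3-fold without CD11b- replicates 1 and 2. Fcgr3, a low-affinity receptor for immunoglobulin G, was at 86.5 ± 2.83 and 11.1 ± 4.09 CPM (8.05-fold, adjusted p = 3.75e-05), and Trem1, which amplifies neutrophil responses, at 46.4 ± 12.7 and 6.23 ± 2.15 CPM (7.70-fold, adjusted p = 0.00025). Siglech, a receptor of plasmacytoid dendritic cells, averaged 0.460 ± 0.558 CPM in the CD11b+ and 23.7 ± 11.5 CPM in the CD11b- libraries (49.4-fold higher in CD11b-, adjusted p = 0.0149 by edgeR), and 95.1-fold without CD11b+ replicate 3. Treml4 was at 14.5 ± 7.11 and 21.7 ± 12 CPM and was not called (adjusted p = 0.555). Over all 62 context genes tested, 21 were called higher and 4 lower in CD11b+, against 14.6% and 15.0% of all tested genes.

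**Figure D4:**
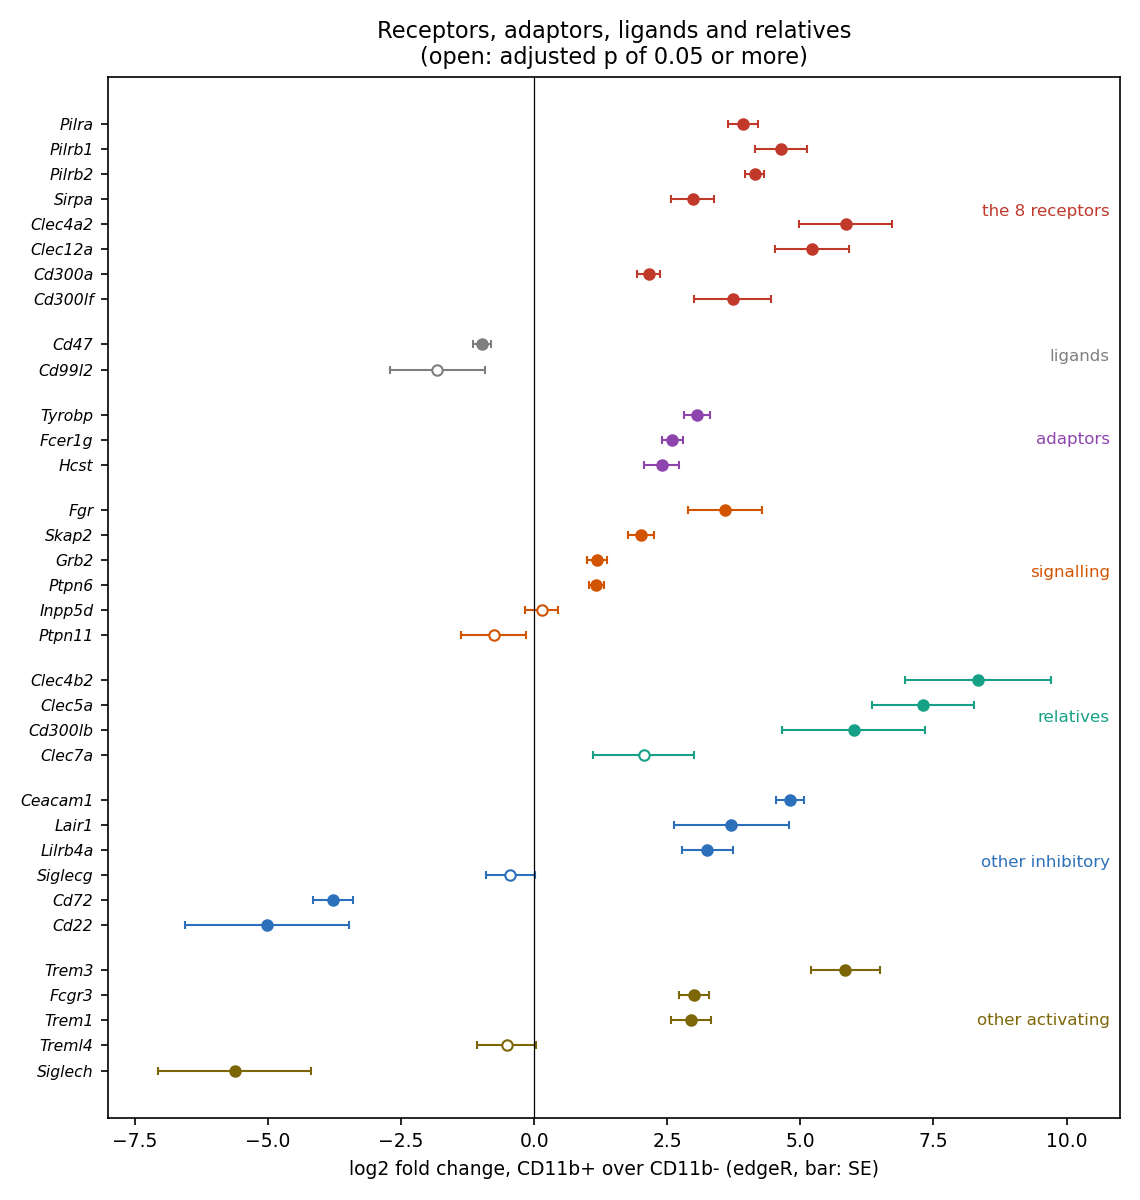
Fitted log2 fold change of the 8 receptors and of context genes, CD11b+ over CD11b- (points, with SE as bars), grouped by role and with open points for genes that were not called; Cd33 is not drawn because it had no count in CD11b-. The 8 receptors lie between 2.15 and 5.86, the 3 adaptors between 2.40 and 3.07, and Cd47, Cd72, Cd22 and Siglech are the filled points below 0.

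The genes most like each receptor were ranked by Pearson's r of log2(CPM + 1) over the 8 libraries, among 8914 genes. With only 2 groups, r mostly follows the difference between the sorts, and the libraries are shared by all genes, so it is given as a description. For Pilrb2 the nearest genes were Gpx3 (r = 0.999), Dgat2 (r = 0.998) and Mogat2 (r = 0.998), and 539 genes had an r above 0.95. For Pilra they were Ffar2, Cebpb and Nfu1 (r of 0.997 to 0.999), and for Pilrb1 Cd177, Rbms1 and Napsa (r of 0.994 to 0.997). Clec4a2 was nearest to Chil3, Acot9 and S100a8 (r of 0.995 to 0.997), and Clec12a to Prss57 and Anxa3 (r of 0.998 to 0.999). Sirpa was nearest to Abcc5, Reep3 and Hmha1 (r of 0.994 to 0.996), and Cd300a to Cebpb, Diap2 and Hacd2 (r of 0.996 to 0.997). Cd300lf had the fewest genes above an r of 0.95 (101), and its nearest were Syne1, Lrg1 and Vim (r of 0.990 to 0.991).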

How the data were processed

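RNA from sorted marrow was made into SmartSeq2 libraries, 4 per group. The authors deposited whole-number counts per gene symbol for each library and 1 table of CPM over all 8 libraries, per the file headers and values. The deposited CPM equalled the counts divided by their total within 0.0005. Per the submitters' processing notes, the build was mm9 and the tools were TopHat2, DESeq2 and HTSeq 0.10.0; the notes give them no role. The strand setting and the annotation behind the counts are unknown (not given in the sources used here). Of 18817 rows, 27 carry numbers in place of symbols (0.205% to 0.514% of counts) and were left out of totals and tests.

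Counts were tested with edgeR 4.0.16 (R 4.3.3) by the quasi-likelihood test, with TMM scaling, filterByExpr (defaults, minimum count 10), a prior count of 0.125 and Benjamini-Hochberg adjustment over all 11965 genes, called at 0.05. The spread behind each p-value is that between biological replicates, and SEs were derived from the F statistic. CPM were recomputed over named genes. Exon lengths by symbol came from GENCODE M21 (18088 of 18790 named genes, 96.3%), and promoter sequences from RefSeq (GRCm38.p6). Named were the 8 receptors, and from each context list up to 4 called genes in each direction by fold with a mean of at least 5 CPM in a group, plus the most abundant gene not called; Cd47, Tyrobp, Fcer1g, Ptpn6 and Ptpn11 were always named. Csk, Lyn, Pirb, Fcgr2b and Thbs1 were named after their values were seen. A few genes that the rule would name are not reported here. The members and lists were chosen with earlier results of these data known. Alternatives were other scalings, DESeq2 1.42.0, other filters, limma 3.58.1 on log2(CPM + 1) and on log2(CPM + 0.5), the replicate number as a block, leaving out each library, and, added after seeing the data, leaving out CD11b- replicates 1 and 2, the highest of their group in Mpo. The scripts were tested on simulated counts. For marker lists whose calls are not given above, the numbers called higher and lower in CD11b+ were as follows. Basophil and mast cell genes had 1 and 0 of 7, and conventional dendritic cell genes 0 and 1 of 4. Plasmacytoid dendritic cell genes had 0 and 4 of 6, and megakaryocyte and platelet genes 0 and 1 of 6. T and NK cell genes had 1 and 2 of 5, stem and progenitor genes 1 and 0 of 4, and cell cycle genes 0 and 7 of 7. Ccr9 was at 0 in every CD11b+ library and Clec9a in every CD11b- library. The sums of resident macrophage markers without Vcam1 and Adgre1, and of monocyte markers without Irf8, were chosen after seeing the data.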

Additional observations from a re-analysis of the deposited data

Results flagged for a closer look

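In each group of 4 libraries, the highest and lowest values of the receptors and named context genes were compared with the rest of the group, and a library was noted when its gap to the nearest other library, divided by the range, was above Dixon's 95% critical value for 4 samples. This was met in 6 of 71 groups. For independent, normally distributed values, chance gives it in about 1 in 20. A group with counts in only 1 library, as Clec4b2 had in CD11b-, always meets it.

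Among the receptors, Pilra was at 23.3 CPM in CD11b- replicate 2, where the other CD11b- libraries were at 10.9 to 11.4 CPM. Sirpa was at 15.7 CPM in CD11b- replicate 4, against 49.9 to 54.2 CPM in the others. Of the ligands, Cd47 was at 1672 CPM in CD11b- replicate 1, against 2151 to 2244 CPM, and Cd99l2 at 5.94 CPM in CD11b+ replicate 2, against 0.911 to 1.70 CPM. Cd22 was at 5.39 CPM in CD11b+ replicate 3 and at 0 to 0.246 CPM in the other CD11b+ libraries. Clec4b2 was at 0.143 CPM in CD11b- replicate 2 and at 0 in the others.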

How the results depend on the processing

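Over the 18 alternatives run, the log2 fold changes of the receptors, which were chosen on this contrast, ran from 3.82 to 4.28 for Pilra, 4.22 to 4.98 for Pilrb1, 3.98 to 4.26 for Pilrb2, 2.71 to 3.26 for Sirpa, 5.004 to 6.74 for Clec4a2, 4.85 to 6.36 for Clec12a, 2.04 to 2.24 for Cd300a and 3.02 to 4.93 for Cd300lf. Over all genes the alternatives called 1456 to 2252 higher and 1533 to 2233 lower. Some context counts moved, and the cause was not tested. Ligands called higher went from 0 to 1 without CD11b- replicates 1 and 2 (0 to 1 leaving out single libraries). Relatives called higher went from 3 to 5 under limma with either pseudocount and without that pair (3 to 3 leaving out single libraries). Activating receptors called higher went from 3 to 5 under limma on log2(CPM + 1) and 6 on log2(CPM + 0.5) (3 to 5 leaving out single libraries). Signalling genes called lower went from 0 to 1 (Csk) under upper-quartile scaling, DESeq2, a CPM of at least 10 in 4 libraries and limma with either pseudocount (0 to 1 leaving out single libraries). Other inhibitory receptors called lower went from 2 to 1 without the pair (1 to 2 leaving out single libraries). Leaving out single libraries, the log2 fold change of Inpp5d (not called) ran from -0.030 to 0.333, below 0 without CD11b+ replicate 2 or 3, and that of Siglecg (not called) from -0.685 to 0.307, above 0 without CD11b- replicate 4. Clec7a was called under limma (1.91 and 2.18).

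With the replicate number as a block, 1585 genes were called higher and 1610 lower. Same-numbered libraries had deviations correlated at 0.020 to 0.064, and libraries of different number at -0.054 to 0.028. Each CD11b- library was nearest to its own number, as were CD11b+ replicates 2 and 4, but not CD11b+ replicates 1 and 3. These values do not settle whether the numbers pair the libraries, and the main test did not pair them. Scalings moved the median log2 fold change of all genes to -0.07 at most. Depth limits Clec4a2, Clec4b2, Clec5a, Cd300lb, Lair1, Thbs1 and Cd33 in CD11b-, and Cd22 and Siglech in CD11b+. For each of these genes some libraries of that group, or for Cd33 all of them, were near or below the level of 3 counts.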
